A study of Mus musculus with 6 samples.

Results

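Genes of cholesterol and fatty acid synthesis were followed in cultured mouse macrophages across 3 treatments. The set names 37 genes: the enzymes that build sterols, the proteins that control them, the enzymes that build fatty acids, the desaturases and elongases that reshape fatty acids, and the acyl-CoA synthetases that activate them. A gene was read from probe sets annotated with its symbol alone, and from the brightest of these on average over the 6 arrays where there were several. This gave values for 33 of the 37 genes, among 22180 genes measured in all. Idi1, Scd2 and Acsl3 are named only on probe sets that also name another gene, Acsl1 is on no probe set of the annotation used, and these 4 genes are not analysed here.

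Bone marrow cells of C57Bl/6 mice were grown for 5 days in M-CSF at 20 ng/ml, the growth factor that turns marrow precursors into macrophages, and were then divided among 3 cultures of 6 days. The first was kept in M-CSF at 50 ng/ml, the second received FSL-1 at 20 ng/ml, and the third received FSL-1 at 20 ng/ml with nutlin-3a at 10 µM. FSL-1 is a synthetic lipopeptide that activates the receptors TLR2 and TLR6, and the series describes the cells it gives as multinucleated giant cells. Nutlin-3a keeps the tumour suppressor p53 from being bound by Mdm2, the ligase that marks it for degradation. The labels do not say whether M-CSF stayed in the medium with FSL-1, and they name no vehicle for nutlin-3a. The groups without nutlin-3a therefore differ in FSL-1 and possibly in M-CSF, and these cannot be told apart. The RNA came from sorted cells, whose sort gate the labels do not state, and was amplified before labelling. Each group had 2 arrays. Nothing in the labels says that the replicates were separate cultures or animals, so each p-value rests on the spread of these arrays, and that spread may be technical only.

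Cells keep sterols and fatty acids in balance through the SREBP transcription factors. When membrane cholesterol is low, the escort protein Scap carries SREBP to the Golgi, where it is cut into its active form, whereas with ample cholesterol Insig proteins hold Scap in the endoplasmic reticulum. SREBP-2, from Srebf2, acts mainly on cholesterol genes and SREBP-1, from Srebf1, mainly on fatty acid genes and desaturases, which place double bonds into fatty acids and so set how fluid membranes are. In macrophages the same lipids feed membrane growth, fusion and the making of lipid mediators.

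Levels are log2 expression values as the authors deposited them, so that a difference of 1 is a 2-fold difference. The median level over all genes was 5.51. Replicate arrays correlated at 0.9929 to 0.9951 across genes, and arrays of different groups at 0.9788 to 0.9858. Of the macrophage markers, Cd68 lay between 13.1 and 13.2 and Lyz2 between 13.0 and 13.3 on the 6 arrays, and the mean over 8 such markers between 11.1 and 11.4. Other markers among the 8 changed: with FSL-1, Adgre1 (0.56) and Itgam (0.74) rose and Csf1r (-0.87) fell, and Fcgr1 and Cd14 fell on adding nutlin-3a (-1.58 and -1.12) and were lower with both agents than with M-CSF (-1.06 and -0.70). Of 7 measured markers of adipocytes, cells that make much fat, Adipoq and Lep lay between 3.84 and 4.46. Plin1, Cidec and Retn lay between 4.70 and 5.62. Fabp4 (7.74 to 10.12) and Lpl (11.0 to 11.59), from the same list, lay higher. The mean level of 11 genes of cell division was 8.67 and 8.79 with M-CSF, 7.75 and 7.85 with FSL-1, and 6.17 and 5.89 with FSL-1 + nutlin-3a. The mean levels of the sterol synthesis genes and of the desaturases descended in the same order, whereas those of the fatty acid synthesis genes (0.04 and 0.03 above M-CSF with FSL-1) and of the elongases (0.02 and 0.07 above M-CSF with both agents) did not. The mean level of the 4 genes that control sterol synthesis was lowest with FSL-1. It differed from its M-CSF mean by -0.44 and -0.36 with FSL-1, and by -0.20 and -0.22 with both agents. The part of cell division in the changes was not tested. In these bulk samples, fewer cells of a type and less RNA per cell cannot be told apart.

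More lipid synthesis genes passed the test between the M-CSF cultures and the cultures with both agents than in the other comparisons. With FSL-1 against M-CSF, 4 of the 33 genes passed at an adjusted p under 0.05, or 12.1%, beside 6.86% of all genes. Me1 rose, beside 3.91% of all genes higher, and Hmgcs1, Srebf2 and Fads1 fell, beside 2.95% lower. The median log2 change of the 33 genes was -0.17 against -0.01 for all genes, and 27 of the 33 had the lower mean with FSL-1, or 81.8% against 51.6% of all genes. With nutlin-3a added to FSL-1, 5 of 33 genes passed, or 15.2%, beside 6.5% of all genes. Scap rose, beside 2.38% of all genes higher, and Pmvk, Fdps, Scd1 and Fads2 fell, beside 4.12% lower. The median log2 change was -0.19 against 0.02 for all genes. With both agents against M-CSF, 13 of 33 genes passed, or 39.4%, beside 9.51% of all genes, and the median log2 change was -0.36 against 0.02. Scap alone of them was higher and 12 were lower, beside 4.58% of all genes higher and 4.94% lower. The shares of all genes include many dim genes. Apart from Acacb, and from Scd1 with nutlin-3a, the 33 genes lay above the median level over all genes. With genes below the 25th percentile of mean level left out, 2087, 1941 and 2768 of 16635 genes passed in the 3 comparisons in turn. These are larger shares than those of all genes. With FSL-1 against M-CSF the share among these brighter genes was not below the 12.1% of the 33 genes. The counts of the 33 genes given here are from the fit over all 22180 genes. The 3 comparisons share arrays, so their counts do not stand apart from each other. In all, 14 of the 33 genes passed in at least 1 comparison and 19 in none.

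**Figure D1:**
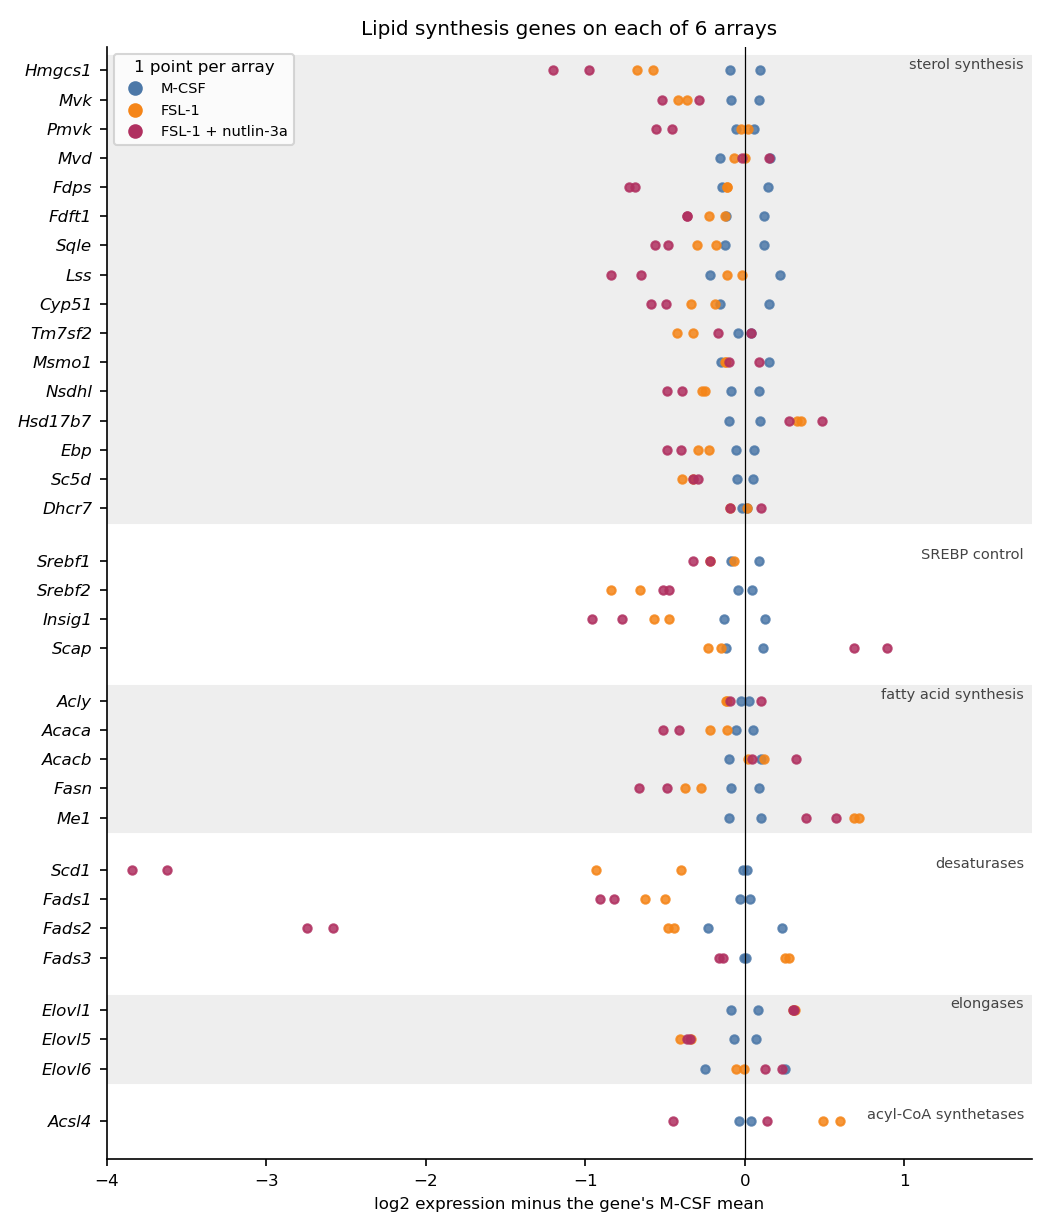
The log2 expression of each of 33 lipid synthesis genes on each of 6 arrays, minus the mean of the gene's 2 M-CSF arrays, with 1 point per array, coloured by treatment and grouped by role. Scd1 and Fads2 stand far to the left on both FSL-1 + nutlin-3a arrays, Scap lies to the right of 0 on the same arrays, and most sterol synthesis genes lie slightly to the left of 0.

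**Figure D2:**
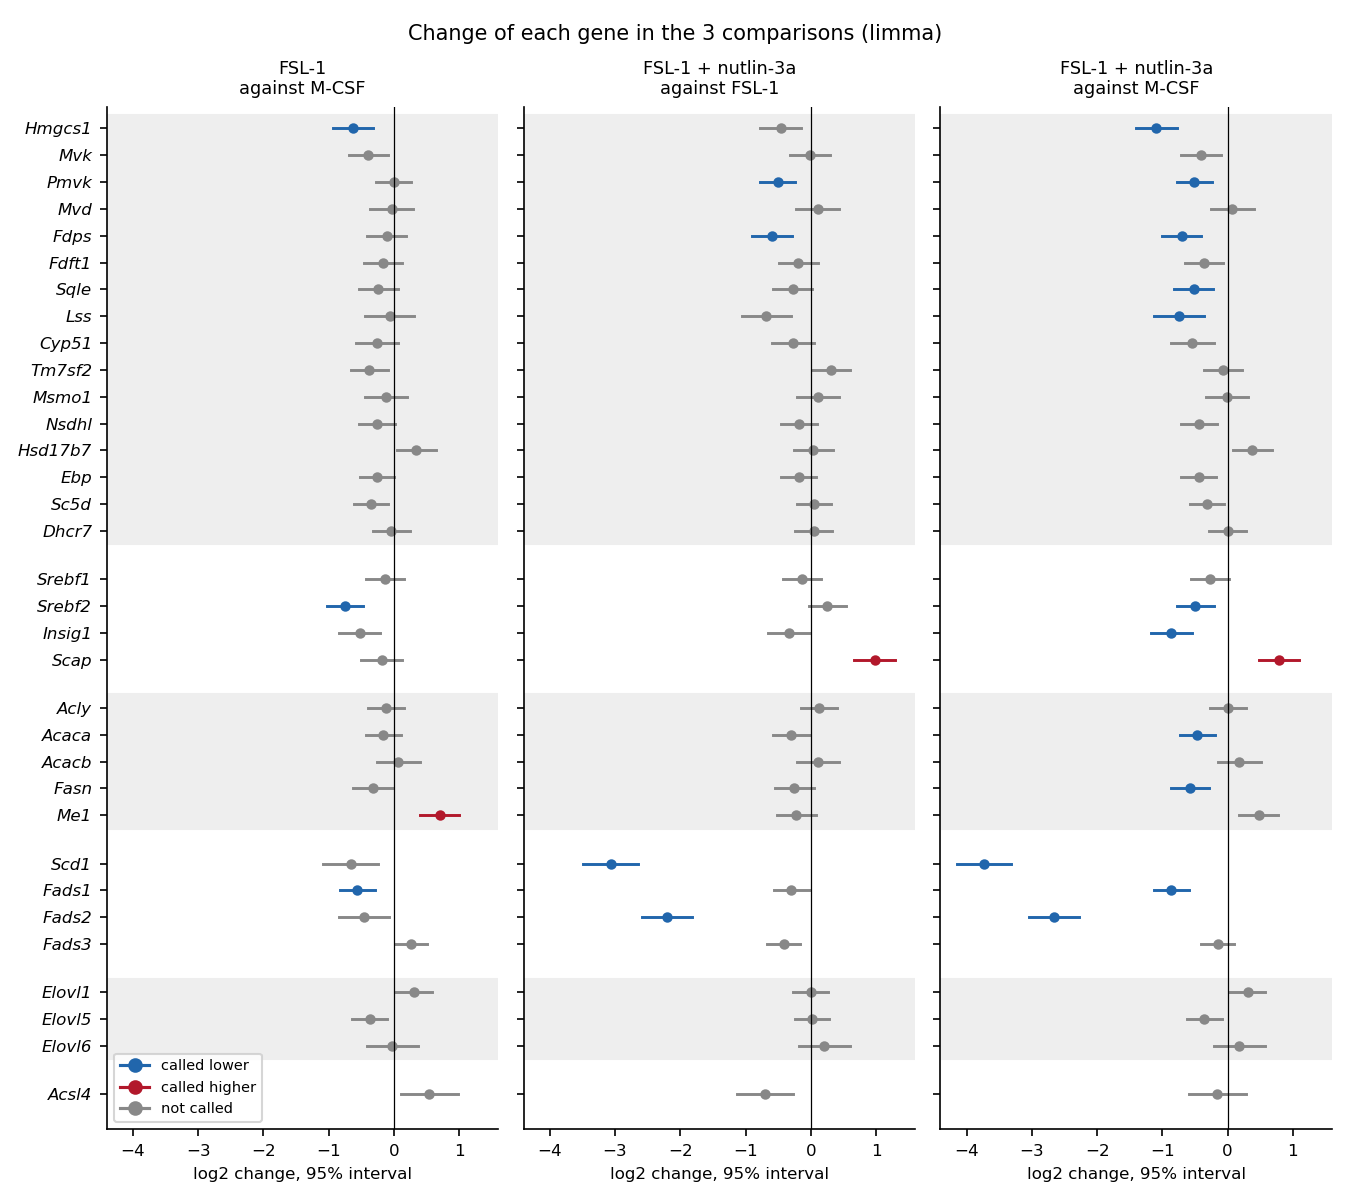
The log2 change of each gene with its 95% interval in each of the 3 comparisons, from limma. Blue marks genes called lower and red genes called higher at an adjusted p under 0.05, which were 4, 5 and 13 of 33 genes from left to right.

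Promoter sequences of 6 of these genes are shown. Hmgcs1, Srebf2, Insig1 and Scap carry letters that SREBP factors are known to read. Lss carries none of these, but only the letters of NF-Y and Sp1 given below. Fads2 is shown because it fell most among the genes with a listed promoter. They come from RefSeq (GRCm38.p6), run from 250 bases before to 50 bases after the annotated start on the strand of the gene, and hold in capitals 4 searched motifs on either strand: TCACNCCA, the core of a sterol response element read by SREBP; CACGTG, an E-box, which SREBP-1 can also bind; CCAAT, read by NF-Y; and GGGCGG, read by Sp1. Hmgcs1 lies at chr13:119690101-119690400 on the plus strand, Lss at chr10:76531355-76531654 (plus), Srebf2 at chr15:82147019-82147318 (plus), Insig1 at chr5:28071162-28071461 (plus), Scap, in the first of its listed windows, at chr9:110333038-110333337 (plus), and Fads2 at chr19:10101454-10101753 (minus).
Hmgcs1: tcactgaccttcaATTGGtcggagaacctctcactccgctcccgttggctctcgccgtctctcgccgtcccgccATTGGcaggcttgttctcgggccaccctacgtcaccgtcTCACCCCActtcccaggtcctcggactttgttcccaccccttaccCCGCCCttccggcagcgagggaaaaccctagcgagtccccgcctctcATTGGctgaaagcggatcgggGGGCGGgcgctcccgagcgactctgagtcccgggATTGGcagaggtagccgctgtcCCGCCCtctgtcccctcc
Lss: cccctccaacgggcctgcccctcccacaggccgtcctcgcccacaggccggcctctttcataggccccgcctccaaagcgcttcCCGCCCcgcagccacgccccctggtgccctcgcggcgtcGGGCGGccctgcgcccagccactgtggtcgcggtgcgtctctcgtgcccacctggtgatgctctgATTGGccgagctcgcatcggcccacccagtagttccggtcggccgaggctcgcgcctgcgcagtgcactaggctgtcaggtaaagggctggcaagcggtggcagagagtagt
Srebf2: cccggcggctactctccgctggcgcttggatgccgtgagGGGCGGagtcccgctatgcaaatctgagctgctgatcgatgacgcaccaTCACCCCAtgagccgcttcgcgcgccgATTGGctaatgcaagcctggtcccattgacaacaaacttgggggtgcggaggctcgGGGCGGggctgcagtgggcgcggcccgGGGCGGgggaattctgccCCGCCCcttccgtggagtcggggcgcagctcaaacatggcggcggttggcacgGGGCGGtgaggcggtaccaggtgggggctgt
Insig1: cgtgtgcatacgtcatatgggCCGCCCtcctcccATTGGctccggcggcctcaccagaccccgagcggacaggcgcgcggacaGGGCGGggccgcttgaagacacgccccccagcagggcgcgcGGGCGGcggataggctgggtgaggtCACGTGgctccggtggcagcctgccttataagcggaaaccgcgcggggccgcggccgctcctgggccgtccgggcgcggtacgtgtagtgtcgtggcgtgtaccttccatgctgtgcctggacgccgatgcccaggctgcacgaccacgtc
Scap: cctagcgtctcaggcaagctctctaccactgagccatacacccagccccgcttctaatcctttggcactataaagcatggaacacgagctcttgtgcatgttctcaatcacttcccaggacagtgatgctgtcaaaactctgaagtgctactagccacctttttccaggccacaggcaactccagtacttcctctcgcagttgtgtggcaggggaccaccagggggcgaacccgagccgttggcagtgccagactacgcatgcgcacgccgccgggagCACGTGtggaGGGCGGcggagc
Fads2: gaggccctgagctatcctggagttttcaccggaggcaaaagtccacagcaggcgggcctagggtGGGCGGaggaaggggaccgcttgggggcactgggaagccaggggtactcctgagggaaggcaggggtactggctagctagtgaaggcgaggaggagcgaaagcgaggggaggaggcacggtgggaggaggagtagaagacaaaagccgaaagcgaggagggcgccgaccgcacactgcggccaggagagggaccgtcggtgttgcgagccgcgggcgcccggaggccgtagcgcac

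Of the 33 genes, 28 had a promoter entry, in 36 windows, and Fdps, Fdft1, Sqle, Scd1 and Fads1 had none in the table used. The sterol response element core was found in 3 of the 28 genes, Hmgcs1, Msmo1 and Srebf2, beside 4.97% of 27025 genes. It began 137 bases before the start in Hmgcs1, 177 in Msmo1 and 162 in Srebf2. The E-box was found in 6 of 28 genes, beside 8.09% of all: Dhcr7, Elovl5, Hsd17b7, Insig1, Sc5d and Scap. In Insig1 the E-box began 101 bases before the start, and in the printed window of Scap 28 bases after it. CCAAT was found in 23 of 28 genes, among them 13 of 13 sterol synthesis genes, beside 41.1% of all genes. GGGCGG was found in 22 of 28 genes and in 12 of 13 sterol synthesis genes, beside 38.2% of all genes. A pair of matches of different motifs overlapped once in the 36 windows. Genes with the sterol response element core included Hmgcs1 and Srebf2, which fell with FSL-1, and Msmo1, which passed in no comparison. The 27025 genes set beside them were not limited to genes of like level in these cells. These matches describe letters only.

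**Figure D3:**
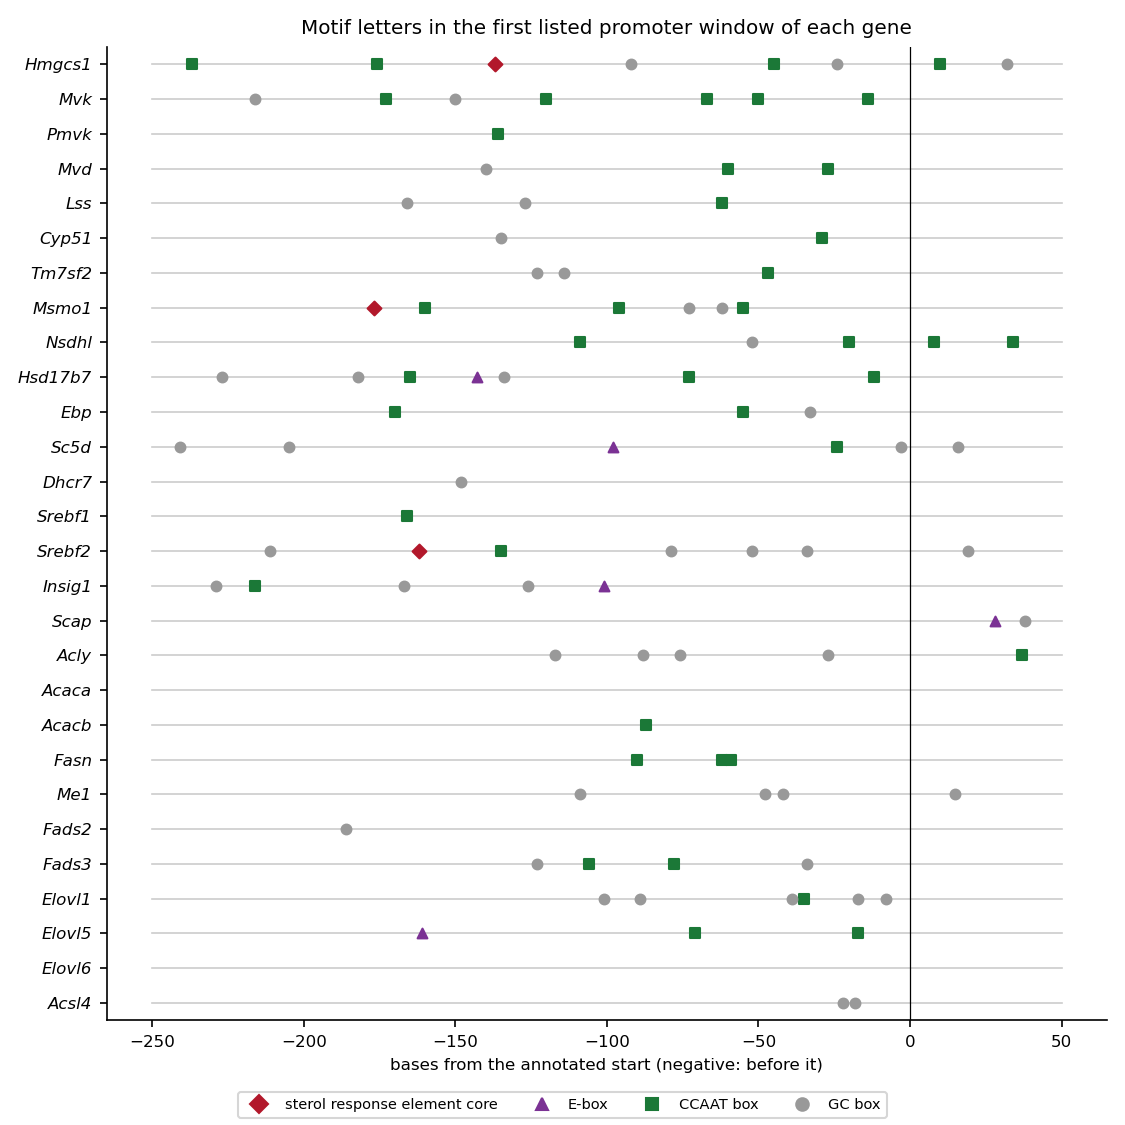
Positions of the 4 motifs in the first listed promoter window of 28 genes, in bases from the annotated start (negative values lie before it), with 1 marker per match. The sterol response element core appears in Hmgcs1, Msmo1 and Srebf2, and CCAAT in most sterol synthesis genes; for genes with several windows, such as Dhcr7, matches in the other windows are not drawn.

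Among the 16 measured enzymes of sterol synthesis, 1 fell with FSL-1 and 2 fell when nutlin-3a was added. With both agents, 5 were lower than with M-CSF, and none was called higher in any comparison in limma's test. The called shares were 6.25%, 12.5% and 31.2%, beside 6.86%, 6.5% and 9.51% of all genes called in either direction. At an unadjusted p under 0.05, 1, 1 and 1 were higher and 4, 4 and 11 lower, beside 2376, 2305 and 2650 higher and 2336, 2406 and 2644 lower of the 22180 genes. The median log2 change was -0.21, -0.18 and -0.42 in the same order, and 15, 10 and 13 of the 16 had the lower mean. Over all genes the medians were -0.01, 0.02 and 0.02, and 51.6%, 45.8% and 46.6% had the lower mean. Hmgcs1, which condenses acetyl-CoA with acetoacetyl-CoA to HMG-CoA near the entry to the pathway, had the largest change of the 16 in both comparisons with M-CSF, and on adding nutlin-3a Lss, Fdps and Pmvk had larger ones. Its level was 10.88 and 11.07 with M-CSF, 10.30 and 10.40 with FSL-1, and 9.99 and 9.77 with FSL-1 + nutlin-3a. The groups did not overlap and followed that order. Hmgcs1 fell by 0.63 on the log2 scale with FSL-1 (SE 0.13, adjusted p = 0.0312) and was 2.13-fold lower with both agents than with M-CSF (adjusted p = 0.002). The further difference on adding nutlin-3a was -0.46 (adjusted p = 0.0883). The call with FSL-1 was lost whichever of the 4 arrays compared was left out, with log2 changes of -0.72 to -0.53, whereas the call against M-CSF held whichever of the 6 arrays was left out.

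Pmvk, the kinase that makes mevalonate diphosphate, lay at 8.01 and 8.12 with M-CSF, 8.03 and 8.08 with FSL-1, and 7.60 and 7.5 with FSL-1 + nutlin-3a. Only the nutlin-3a arrays stood below the rest. Pmvk fell by 0.50 on adding nutlin-3a (SE 0.12, adjusted p = 0.0436) and differed from M-CSF by -0.51 (adjusted p = 0.0311). Fdps makes farnesyl diphosphate, the branch point to sterols and to the lipid anchors of small GTPases, and is the target of bisphosphonate drugs. It read 9.76 and 10.05 with M-CSF, 9.79 and 9.80 with FSL-1, and 9.22 and 9.18 with FSL-1 + nutlin-3a. Its M-CSF and FSL-1 arrays overlapped, and both nutlin-3a arrays lay below them. The drop on adding nutlin-3a was 1.51-fold (95% interval 1.22 to 1.86, adjusted p = 0.0386), and that against M-CSF 1.63-fold (adjusted p = 0.0135). Both Pmvk calls were lost whichever of the 6 arrays was left out, with log2 changes of -0.55 to -0.46 against FSL-1 and -0.56 to -0.45 against M-CSF. The Fdps call against FSL-1 was lost whichever of the 4 arrays compared was left out (-0.61 to -0.57), and that against M-CSF without M-CSF array 2 or either nutlin-3a array (over all arrays left out, -0.85 to -0.56).

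Sqle and Lss act in sequence to oxidise squalene and to close it into lanosterol, the first sterol. Sqle was 9.43 and 9.67 with M-CSF, 9.25 and 9.37 with FSL-1, and 9.07 and 8.99 with FSL-1 + nutlin-3a. Lss was 8.96 and 9.40 with M-CSF, 9.07 and 9.16 with FSL-1, and 8.53 and 8.34 with FSL-1 + nutlin-3a. Both genes had their lowest arrays with nutlin-3a, and the FSL-1 arrays of Lss fell within its M-CSF range. Both fell against M-CSF, with a log2 change of -0.52 for Sqle (SE 0.13, adjusted p = 0.0453) and of -0.74 for Lss (SE 0.16, adjusted p = 0.0275). The Lss difference on adding nutlin-3a alone was -0.68 (adjusted p = 0.0505), just outside the threshold. The Sqle call was lost whichever of the 6 arrays was left out (-0.64 to -0.40), and the Lss call without any array but M-CSF array 1 (-0.96 to -0.52).

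The other 11 sterol enzymes passed in no comparison. Of these, 3 came close with both agents against M-CSF: Cyp51, which removes the 14-methyl group of lanosterol, at -0.54 (adjusted p = 0.0523), Ebp, the sterol isomerase, at -0.44 (adjusted p = 0.0521), and Nsdhl, which acts in removing the 4-methyl groups, at -0.44 (adjusted p = 0.0581). In the same comparison Mvk, the mevalonate kinase, differed by -0.40, Fdft1, which makes squalene, by -0.36 and Sc5d, a late desaturase of the sterol ring, by -0.31. Other members of the pathway did not share the lower values. Hsd17b7, a ketoreductase of the 4-demethylation steps, lay at 7.68 and 7.87 with M-CSF, 8.13 and 8.10 with FSL-1, and 8.26 and 8.05 with both agents, a difference of 0.38 (adjusted p = 0.119). Dhcr7, which makes cholesterol from 7-dehydrocholesterol, differed by 0.00 (95% interval -0.28 to 0.28), Msmo1, the 4-methyl oxidase, by -0.01 (-0.33 to 0.32), and Mvd, the mevalonate diphosphate decarboxylase, by 0.07 (-0.26 to 0.40). Tm7sf2, a sterol C14 reductase, had its lowest arrays with FSL-1, at 8.21 and 8.31 against 8.60 and 8.68 with M-CSF and 8.47 and 8.68 with both agents, but neither FSL-1 difference passed (adjusted p = 0.129 and 0.203).

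Of the 4 control genes, 1 fell with FSL-1 and 1 rose on adding nutlin-3a. With both agents, 1 was higher and 2 were lower than with M-CSF. These were 25%, 25% and 75%, beside 6.86%, 6.5% and 9.51% of all genes. Srebf2 lay at 9.76 and 9.84 with M-CSF, 8.96 and 9.14 with FSL-1, and 9.29 and 9.33 with FSL-1 + nutlin-3a. It was lowest with FSL-1, and the 3 groups did not overlap. It fell 1.68-fold with FSL-1 (95% interval 1.39 to 2.04, adjusted p = 0.0107) and was 1.41-fold lower with both agents than with M-CSF (adjusted p = 0.0409); the difference of 0.26 on adding nutlin-3a did not pass (adjusted p = 0.276). The FSL-1 call was lost without either M-CSF array or FSL-1 array 1 (over all arrays left out, -0.84 to -0.66), and the call against M-CSF whichever of the 6 arrays was left out (-0.54 to -0.45). Srebf1 passed nowhere: its levels ran from 7.72 to 8.13, with a difference of -0.27 between both agents and M-CSF (95% interval -0.56 to 0.02).

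Insig1, which retains Scap in the endoplasmic reticulum and is itself a target of SREBP, read 11.61 and 11.87 with M-CSF, 11.26 and 11.17 with FSL-1, and 10.79 and 10.97 with FSL-1 + nutlin-3a. Its groups did not overlap and descended in that order, as those of Hmgcs1 did. Insig1 was 1.82-fold lower with both agents than with M-CSF (95% interval 1.46 to 2.27, adjusted p = 0.00659), and this call held whichever of the 6 arrays was left out. Neither single step passed: FSL-1 differed from M-CSF by -0.52 (adjusted p = 0.0642), and nutlin-3a added -0.34 (adjusted p = 0.202).

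Scap was the only one of the 33 genes called higher with nutlin-3a. It read 8.64 and 8.41 with M-CSF, 8.29 and 8.38 with FSL-1, and 9.42 and 9.21 with FSL-1 + nutlin-3a. Both nutlin-3a arrays lay above the other 4. Scap rose 1.97-fold over FSL-1 (95% interval 1.59 to 2.45, adjusted p = 0.00628) and 1.73-fold over M-CSF (adjusted p = 0.00964). Scap also had a dimmer probe set, with group means of 5.13, 5.28 and 5.46, which changed by 0.19 over FSL-1 (adjusted p over probe sets = 0.546) and by 0.33 over M-CSF (0.226). With the mean of both probe sets the change over FSL-1 was 0.58 and both calls held. The call over FSL-1 was lost without FSL-1 array 1, and that over M-CSF without M-CSF array 2 or nutlin-3a array 1; over all arrays left out, the changes were 0.88 to 1.08 and 0.67 to 0.91.

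**Figure D4:**
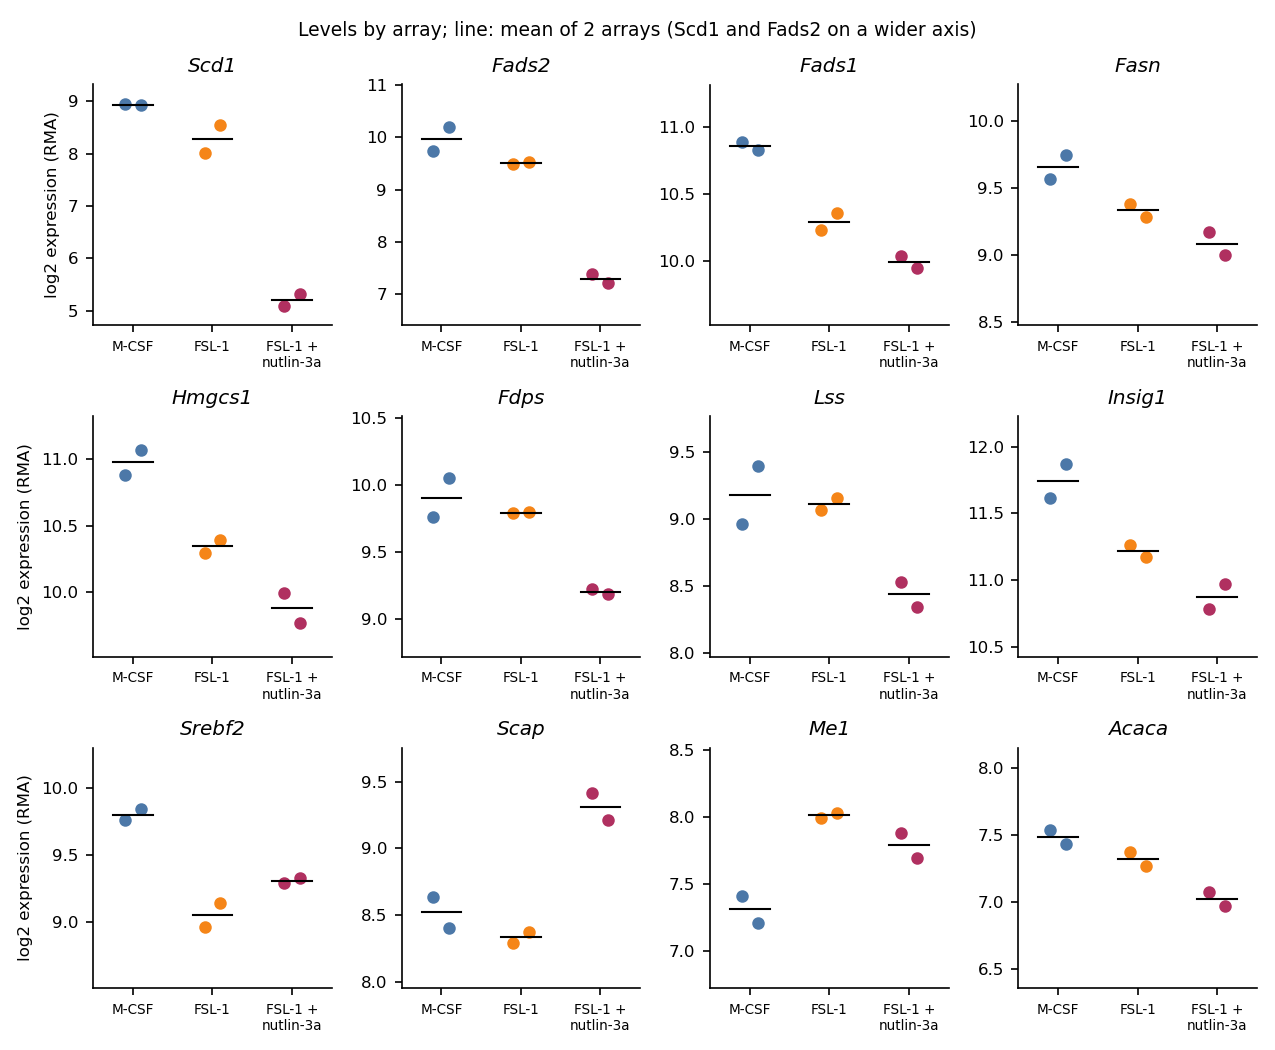
Log2 expression (RMA) of 12 genes on each array, by treatment, with a line at the mean of the 2 arrays of a group; axes do not start at 0, and those of Scd1 and Fads2 span a wider range than the others. Srebf2 is lowest with FSL-1, Me1 is lowest with M-CSF, Scap is highest with nutlin-3a, and the others are lowest with nutlin-3a.

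Of the 5 genes of fatty acid synthesis, 1 rose with FSL-1 and none passed on adding nutlin-3a in limma's test (1 at an unadjusted p under 0.05). With both agents, 2 were lower than with M-CSF. The called shares were 20%, 0% and 40%, beside 6.86%, 6.5% and 9.51% of all genes. Fasn, the synthase that builds palmitate, was 9.57 and 9.75 with M-CSF, 9.38 and 9.29 with FSL-1, and 9.17 and 9.0 with FSL-1 + nutlin-3a. Acaca, the carboxylase that supplies it with malonyl-CoA, was 7.54 and 7.43 with M-CSF, 7.37 and 7.27 with FSL-1, and 7.07 and 6.97 with FSL-1 + nutlin-3a. Both genes descended over the 3 treatments with no overlap between groups. With both agents the log2 change from M-CSF was -0.58 for Fasn (SE 0.13, adjusted p = 0.0282) and -0.46 for Acaca (SE 0.12, adjusted p = 0.0477). Both calls were lost whichever of the 6 arrays was left out, with log2 changes of -0.67 to -0.49 for Fasn and -0.52 to -0.41 for Acaca.

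Me1, the malic enzyme that makes NADPH for lipid synthesis, went the other way. It read 7.41 and 7.21 with M-CSF, 8.0 and 8.03 with FSL-1, and 7.89 and 7.70 with FSL-1 + nutlin-3a. The M-CSF arrays were the lowest. Me1 rose 1.63-fold with FSL-1 (95% interval 1.32 to 2.00, adjusted p = 0.0181). That call did not survive the loss of any of the 4 arrays compared (0.60 to 0.80). With both agents its difference from M-CSF was 0.48 (adjusted p = 0.0581). Acly, which cuts citrate to supply acetyl-CoA to both pathways, stayed within 10.00 to 10.22 on the 6 arrays, and its difference between both agents and M-CSF was 0.00 (95% interval -0.27 to 0.28). Acacb, the mitochondrial carboxylase that limits fatty acid oxidation, lay between 4.74 and 5.16 and differed by 0.18 (-0.14 to 0.51).

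The desaturases held the largest changes of the 33 genes in both comparisons with nutlin-3a. Scd1 encodes stearoyl-CoA desaturase, which makes oleate and palmitoleate from saturated fatty acids. It read 8.95 and 8.93 with M-CSF, 8.01 and 8.54 with FSL-1, and 5.09 and 5.31 with FSL-1 + nutlin-3a. The nutlin-3a arrays lay far below the other 4, and the FSL-1 arrays lay below both M-CSF arrays and apart from each other. On adding nutlin-3a, Scd1 fell 8.39-fold (95% interval 6.27 to 11.2, adjusted p = 0.000217), and 3 of the 22180 genes had a lower log2 change. Against M-CSF it was 13.3-fold lower with both agents (95% interval 9.95 to 17.8, adjusted p = 2.41e-05), and 1 gene had a lower log2 change. With FSL-1 alone the difference was -0.67 (SE 0.18, adjusted p = 0.0733). Since the files hold no detection calls, it is not known how far the levels of 5.09 and 5.31 lie above background.

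Fads2, the delta-6 desaturase that takes the first step from dietary linoleic and alpha-linolenic acid towards arachidonic acid and its omega-3 relatives, followed the same course. Its level was 9.73 and 10.20 with M-CSF, 9.48 and 9.52 with FSL-1, and 7.38 and 7.22 with FSL-1 + nutlin-3a. Again the nutlin-3a arrays stood apart from the other 4. Fads2 fell 4.59-fold on adding nutlin-3a (95% interval 3.52 to 5.99, adjusted p = 0.00044), with 30 genes lower, and was 6.34-fold lower with both agents than with M-CSF (adjusted p = 7.66e-05), with 19 genes lower. The FSL-1 difference from M-CSF was -0.46 (adjusted p = 0.154). All 4 of these Scd1 and Fads2 calls held whichever of the 6 arrays was left out, with log2 changes of -3.33 to -2.80 for Scd1 and -2.28 to -2.12 for Fads2 on adding nutlin-3a.

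Fads1, the delta-5 desaturase that acts after Fads2 on the same chain, read 10.89 and 10.83 with M-CSF, 10.23 and 10.36 with FSL-1, and 10.04 and 9.95 with FSL-1 + nutlin-3a. Its larger step lay between M-CSF and FSL-1, and the groups did not overlap. Fads1 fell by 0.56 with FSL-1 (SE 0.12, adjusted p = 0.0276), differed by -0.30 on adding nutlin-3a (adjusted p = 0.189), and was 1.82-fold lower with both agents than with M-CSF (adjusted p = 0.00316). The FSL-1 call was lost whichever of the 4 arrays compared was left out (-0.63 to -0.50), and the call against M-CSF held whichever of the 6 arrays was left out. Fads3, a relative of Fads1 and Fads2, read 7.45 and 7.43 with M-CSF, 7.72 and 7.69 with FSL-1, and 7.30 and 7.28 with FSL-1 + nutlin-3a. It was highest with FSL-1, but neither the difference from M-CSF of 0.26 (adjusted p = 0.216) nor the difference of -0.41 on adding nutlin-3a (adjusted p = 0.0668) passed. Of the 4 desaturases, 1 fell with FSL-1, 2 fell on adding nutlin-3a and 3 were lower with both agents than with M-CSF. These were 25%, 50% and 75%, beside 6.86%, 6.5% and 9.51% of all genes called in either direction. The median log2 changes were -0.51, -1.31 and -1.76, beside -0.01, 0.02 and 0.02 over all genes.

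The 3 elongases, which add carbons to fatty acid chains, passed in no comparison by limma's test, and 2, 0 and 2 of them had an unadjusted p under 0.05, as had 4712, 4711 and 5294 of the 22180 genes. Elovl6, which lengthens palmitate and shares its substrates with Scd1, lay at 8.57 and 9.07 with M-CSF, 8.82 and 8.77 with FSL-1, and 8.95 and 9.06 with FSL-1 + nutlin-3a. Elovl5, which lengthens the products of Fads2, lay at 10.48 and 10.62, 10.21 and 10.14, and 10.18 and 10.20 in the same order, and differed by -0.37 with FSL-1 (adjusted p = 0.107). Elovl1, which builds very long saturated chains, was 9.69 and 9.86 with M-CSF and between 10.08 and 10.09 on the other 4 arrays, a difference of 0.31 with FSL-1 (adjusted p = 0.176). On adding nutlin-3a the differences were 0.21 for Elovl6 (95% interval -0.18 to 0.60), 0.02 for Elovl5 (-0.25 to 0.29) and 0.00 for Elovl1 (-0.27 to 0.27). These intervals lie above those of Scd1 (-3.49 to -2.65) and Fads2 (-2.58 to -1.82) in the same comparison. Acsl4, which activates arachidonic acid, was 9.35 and 9.43 with M-CSF, 9.99 and 9.88 with FSL-1, and 9.53 and 8.94 with FSL-1 + nutlin-3a. Its nutlin-3a arrays differed from each other by more than those of any other of the 33 genes, and neither 0.54 with FSL-1 (adjusted p = 0.144) nor -0.70 on adding nutlin-3a (adjusted p = 0.0712) passed.

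**Figure D5:**
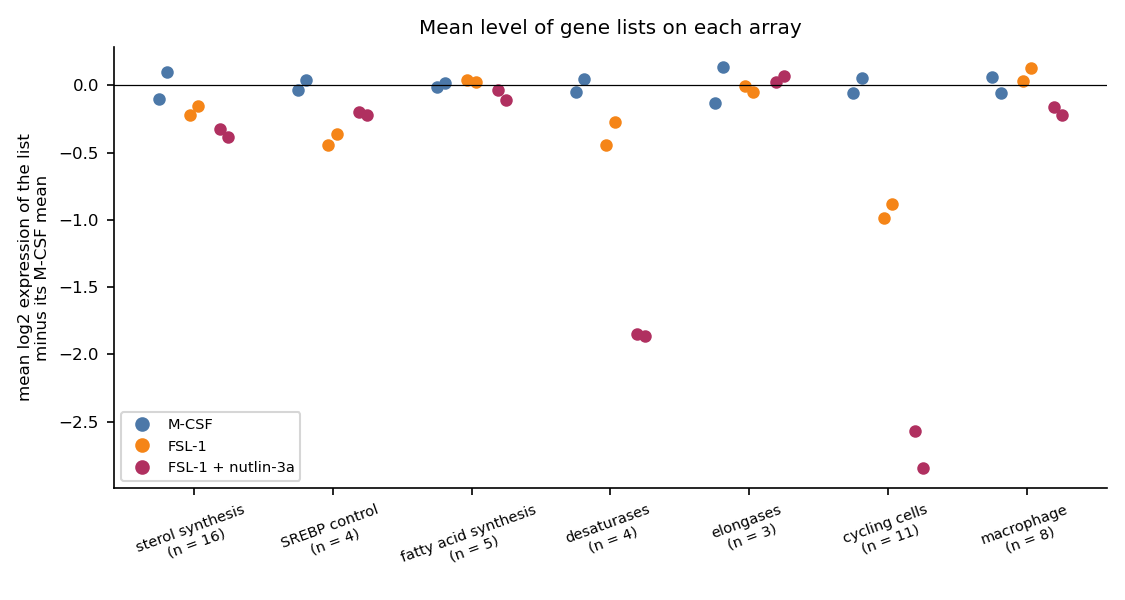
The mean log2 expression of each gene list on each array, minus the list's M-CSF mean, with 1 point per array. With nutlin-3a the desaturases lie at -1.85 and -1.86 and the sterol synthesis genes at -0.33 and -0.38, the elongases near 0, and the 11 cell division genes at -2.56 and -2.84.

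Further genes of the same pathways were read from lists. Of 6 further sterol pathway genes measured out of 13 listed, 1 fell with FSL-1, 1 fell on adding nutlin-3a and 2 were lower with both agents than with M-CSF, or 16.7%, 16.7% and 33.3%, beside 6.86%, 6.5% and 9.51% of all genes. Lbr, a sterol C14 reductase that is also a receptor for lamin B at the nuclear envelope, read 8.91 and 8.85 with M-CSF, 7.76 and 7.93 with FSL-1, and 7.20 and 6.85 with FSL-1 + nutlin-3a. It descended without overlap, and the changes were -1.04 (adjusted p = 0.0063), -0.82 (adjusted p = 0.0184) and -1.85 (adjusted p = 0.000234). Stard4, a carrier of cholesterol between membranes, read 8.18 and 8.21, then 7.62 and 7.81, then 7.15 and 7.32, and was 1.95-fold lower with both agents than with M-CSF (adjusted p = 0.00278). The last Lbr call and the Stard4 call held whichever of the 6 arrays was left out. The Lbr call with FSL-1 was lost without M-CSF array 1 or FSL-1 array 1 (over all arrays left out, -1.12 to -0.95), and that on adding nutlin-3a without either FSL-1 array or nutlin-3a array 2 (-0.99 to -0.64).

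Of 20 further fatty acid genes, 3 rose and 1 fell with FSL-1, and 1 rose and 2 fell on adding nutlin-3a. With both agents, 2 were higher and 2 lower than with M-CSF. These calls made up 20%, 15% and 20% of the 20 genes, beside 6.86%, 6.5% and 9.51% of all genes. On adding nutlin-3a, the genes that fell were Mid1ip1, whose protein promotes assembly of the carboxylase Acaca, with a log2 change of -0.93 (adjusted p = 0.00648), and Acss2, which makes acetyl-CoA from acetate, with a change of -0.67 (adjusted p = 0.0421). Mid1ip1 had 3 probe sets, which on adding nutlin-3a changed by -0.93, -0.06 and -0.52. Between both agents and M-CSF they changed by -0.79, 0.22 and -0.19. With the mean of the probe sets the call against M-CSF, a change of -0.79, was lost at -0.25. The Mid1ip1 call on adding nutlin-3a was lost without either FSL-1 array (over all arrays left out, -1.05 to -0.82). Of the fits that left out an array, its call against M-CSF was lost without M-CSF array 2 or nutlin-3a array 2 (-0.90 to -0.67). The Acss2 call was lost whichever of the 6 arrays was left out (-0.83 to -0.51). The dehydratases of chain elongation diverged. Hacd2 was 2.16-fold higher with both agents than with M-CSF (adjusted p = 0.00224) and Hacd4 was 1.84-fold lower with FSL-1 (adjusted p = 0.00427), and both of these calls held whichever of the 6 arrays was left out. Hacd1 rose by 0.90 with FSL-1 (adjusted p = 0.00756) and Hacd3 by 0.67 (adjusted p = 0.021), and so did Degs1, the desaturase of ceramide synthesis, by 0.68 (adjusted p = 0.0203). Each of these was lost without FSL-1 array 1 or 2, and those of Hacd3 and Degs1 also without M-CSF array 1, with log2 changes of 0.76 to 1.04 for Hacd1, 0.55 to 0.78 for Hacd3 and 0.57 to 0.79 for Degs1. The remaining calls were those of Hacd2 on adding nutlin-3a (0.64, adjusted p = 0.0375) and, against M-CSF, of Hacd1 (0.60, adjusted p = 0.0281) and Hacd4 (-0.71, adjusted p = 0.00734). They were lost, in turn, on leaving out any of the 4 arrays compared (0.54 to 0.74), without any array but M-CSF array 1 (0.46 to 0.74), and without M-CSF array 1 (over all, -0.77 to -0.64).

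The liver X receptors sense oxysterols and are known to drive Srebf1 and Scd1 as well as the cholesterol exporters. Of 6 receptors and targets listed, 5 were measured. With FSL-1 1 rose and 1 fell, on adding nutlin-3a 1 rose, and with both agents against M-CSF 1 was higher and 2 lower. These were 40%, 20% and 60%, beside 6.86%, 6.5% and 9.51% of all genes. Mylip and Lpcat3 passed in no comparison. Nr1h3, which encodes LXR alpha, read 6.31 and 6.42 with M-CSF, 7.01 and 7.0 with FSL-1, and 8.04 and 8.01 with FSL-1 + nutlin-3a. It climbed over the treatments without overlap, rising by 0.64 (adjusted p = 0.015), then by 1.02 (adjusted p = 0.00235), to 3.16-fold over M-CSF (adjusted p = 0.000114). The exporters Abcg1 and Abca1 did not share the rise of Nr1h3. Abcg1 read 10.15 and 10.01, then 8.97 and 9.27, then 8.97 and 8.65, and its log2 change from M-CSF was -0.96 with FSL-1 (adjusted p = 0.0121) and -1.27 with both agents (adjusted p = 0.00223). Abca1 was 2.11-fold lower with both agents than with M-CSF (adjusted p = 0.0422); leaving out any array other than M-CSF array 2 removed that call (-1.44 to -0.71). The 2 later Nr1h3 calls and the last Abcg1 call held whichever of the 6 arrays was left out. The FSL-1 call of Nr1h3 was lost without M-CSF array 1 or either FSL-1 array (0.59 to 0.69), and that of Abcg1 without M-CSF array 1 or FSL-1 array 1 (-1.11 to -0.81).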

How the data were processed

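Expression was measured on Affymetrix arrays from amplified RNA of sorted cells (NuGEN Ovation PicoSL WTA kit, per the labels' protocols). The authors deposited log2 values, 1 for each probe set and array, which the submitters' processing notes attribute to RMA and to version 1.4 of Affymetrix Expression Console. This method corrects background and equalises the arrays, so a change shared by most genes would be hidden; array medians were 5.05 to 5.14. Raw intensities are not used here. Of 34390 probe sets, 23521 named 1 gene, 1814 several and 9055 none, giving 22180 genes, 1082 of them with several probe sets.

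The test was limma 3.58.1 under R 4.3.3, with lmFit and eBayes fitted over all 6 arrays with 3 residual and 4.88 prior degrees of freedom, and calls were made at an adjusted p under 0.05 (Benjamini-Hochberg, over all genes). Intervals are 95% intervals of this fit. The genes and lists were chosen with earlier results of these data known. Values for every array are given for each member called in at least 1 comparison, other members by values or ranges, and of the further pathway genes the called ones were named. The replicate numbers were not used to pair the samples in the main fit. Deviations of same-numbered arrays correlated at -0.188 (M-CSF and FSL-1), 0.0175 (M-CSF and nutlin-3a) and -0.0248 (FSL-1 and nutlin-3a). With 1 such deviation per gene in each group, these values cannot show whether the samples were paired. Alternatives were quantile normalization once more, eBayes with trend and robust, centring, averaging the probe sets of a gene, leaving out genes below the 25th percentile of mean level, fits on the compared groups alone, a replicate block, array weights and leaving out each array. Promoters are those of RefSeq (GRCm38.p6), matched by symbol; no source used here states the build behind the array annotation. Further pathway genes not named by a probe set of their own are not analysed here. Figures were drawn with matplotlib 3.10.9.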

Additional observations from a re-analysis of the deposited data

How the results depend on the processing

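No called change of the 33 genes, 22 in all, turned its sign in 9 other settings or in 6 fits that each left out 1 array, and 7 of the 22 calls held in all of them: Hmgcs1, Insig1 and Fads1 in nutlin-3a with FSL-1 against M-CSF, and Scd1 and Fads2 against both controls. In the 9 settings that keep every array, 12 of the 22 calls held throughout. The Pmvk call against FSL-1 and the Acaca call against M-CSF held in 4 of these 9. Those of Sqle and Srebf2 with both agents against M-CSF held in 5. Counts of called genes, in the order FSL-1 against M-CSF, nutlin-3a against FSL-1 and nutlin-3a against M-CSF, were 4, 5 and 13. They became 12, 11 and 23 with trend and robust, where calls over all genes rose from 1521, 1441 and 2110 to 2744, 2658 and 3337. The second became 8 without genes below the 25th percentile of mean level, and the third 7 on the compared groups alone. With a replicate block they were 2, 3 and 8, and with a block that crosses the M-CSF numbers, chosen after seeing the data, the second was 3. Leaving out 1 array gave 0 to 5, 2 to 5 and 5 to 8, and 451 to 1299, 352 to 1212 and 1158 to 1529 calls over all genes; the group with 1 array left is assumed to vary like the others, and the fit has fewer degrees of freedom. Of 77 changes that were not called, 21 turned sign in some setting, all of 0.18 or less in size. With quantile normalization Mvk (0.0375) and Elovl1 (0.0349) turned against FSL-1 and Acly (-0.0163) against M-CSF, and with centring Dhcr7 (-0.0290) and Acly (-0.0284) against M-CSF. Leaving out 1 array turned, with FSL-1 against M-CSF, Acacb (-0.0325 to 0.17), Pmvk (-0.0589 to 0.052), Mvd (-0.192 to 0.124), Fdps (-0.255 to 0.0309), Lss (-0.283 to 0.155), Msmo1 (-0.272 to 0.0322), Elovl6 (-0.279 to 0.222) and Dhcr7 (-0.0922 to 0.0132); on adding nutlin-3a to FSL-1, Dhcr7 (-0.0533 to 0.138), Elovl1 (-0.00613 to 0.0034), Mvk (-0.128 to 0.105), Elovl5 (-0.0177 to 0.0548), Hsd17b7 (-0.0659 to 0.142) and Acacb (-0.0261 to 0.252); and for nutlin-3a against M-CSF, Mvd (-0.0888 to 0.227), Acly (-0.0923 to 0.0987), Elovl6 (-0.0715 to 0.43), Msmo1 (-0.158 to 0.146), Dhcr7 (-0.0929 to 0.0981), Tm7sf2 (-0.172 to 0.0377) and Acsl4 (-0.452 to 0.14). For the counts and turned signs not tied to fewer arrays or genes, the cause was not tested. With 2 arrays a group, precision is limited by their number, and outlying arrays could not be tested for.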

Other observations

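Fabp4, a fatty acid carrier that macrophages share with adipocytes, moved in opposite directions with the 2 agents. It read 8.77 and 8.85 with M-CSF, 10.12 and 10.06 with FSL-1, and 7.74 and 8.08 with FSL-1 + nutlin-3a. It rose 2.44-fold with FSL-1 (adjusted p = 0.00182, limma), fell 4.55-fold on adding nutlin-3a (adjusted p = 0.000266) and was 1.87-fold lower with both agents than with M-CSF (adjusted p = 0.00599). The M-CSF and FSL-1 arrays of Scd1 and Fads2 had the opposite order, with their higher levels in M-CSF. Neither of these differences, -0.67 and -0.46, passed in limma's test (adjusted p = 0.0733 and 0.154). Lpl, the lipoprotein lipase that macrophages secrete, lay between 11.0 and 11.59 on the 6 arrays and passed in no comparison.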
